A study of Homo sapiens with 16 samples.

Results

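G-quadruplexes (G4s) are folds that guanine-rich DNA can take, held together by stacked planes of guanines. They were detected here with BG4, an antibody that binds folded G4 DNA. The loci described are siControl G4 loci on H3K4me3-marked chromatin that had no G4 peak after knockdown of BAZ2A, of BAZ2B or of both proteins in turn. Overlapping peaks of the 3 BG4 lists (siControl, siBAZ2A and siBAZ2B) were merged into 6206 loci. A locus was taken when it held a siControl peak, shared at least 1 base with a siControl H3K4me3 peak, and lacked a peak of at least 1 knockdown list. This choice rests on the measured lists themselves and gave 788 loci. They fell into 298 loci lost in siBAZ2A only, 209 lost in siBAZ2B only and 281 lost in both knockdowns, and 2207 siControl loci at H3K4me3 were kept in both. "Lost" means here that the deposited list had no peak at the locus, not that BG4 signal was measured as absent.

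All samples came from A549, a lung carcinoma cell line of human origin, and were transfected with siRNA at 71 nM for 48 hours. The siRNA was a control in the siControl cells and was directed against BAZ2A in the siBAZ2A cells and against BAZ2B in the siBAZ2B cells. CUT&Tag, in which an antibody directs a transposase to the chromatin it is bound to, was run with BG4 in all 3 and with an antibody to H3K4me3 in the siControl cells. The 16 samples made 4 groups of 4 replicates, but each group has 1 deposited peak list. Per the labels, it keeps peaks present in 2 or more replicates, positioned by the largest replicate's file. The peak names of a list hold 1 run name, so its folds, widths and summits may be those of 1 replicate. No value carries a replicate error, and the conditions could not be tested against each other. Intervals given below are 95% intervals for counting error over loci alone; the variation between cultures is outside them. The sources used here give no read depth, and the levels of BAZ2A and BAZ2B after transfection were not analysed here.

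BAZ2A forms the nucleolar remodelling complex together with an ATPase and is known for silencing copies of the ribosomal RNA genes. BAZ2B belongs to the same family of bromodomain proteins. H3K4me3 marks the promoters of active genes, and G4s detected with BG4 in chromatin are known to lie mainly at such nucleosome-depleted promoters. Coordinates are hg19 throughout. An hg19 sequence or gene annotation was not used here, so loci are named by position.

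Most siControl G4 loci at H3K4me3 were kept in both knockdown lists, and of the lost ones the fewest were lost in siBAZ2B only. Of 2995 such loci, 298 were lost in siBAZ2A only (9.95%, Wilson interval 8.93 to 11.1), 209 in siBAZ2B only (6.98%, 6.12 to 7.95) and 281 in both (9.38%, 8.39 to 10.5), together 26.3% (24.8 to 27.9). Counting each knockdown on its own, 579 loci (19.3%) lacked a siBAZ2A peak and 490 (16.4%) a siBAZ2B peak. Both knockdown lists were set against the same siControl list, so the 3 patterns are not independent of each other, and a peak that siControl alone held counts as lost in both. Over all 3324 siControl loci, inside and outside H3K4me3, the shares were 11.5% for siBAZ2A only, 6.92% for siBAZ2B only and 11.7% for both, together 30.1%, with 23.2% lacking a siBAZ2A peak and 18.6% a siBAZ2B peak.

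The lists also differed in length, with 3332 siControl, 4257 siBAZ2A and 4865 siBAZ2B peaks. A longer list leaves fewer siControl loci without a partner. With both knockdown lists limited to their strongest peaks, as many as siControl had, 274 loci were lost in siBAZ2A only, 465 in siBAZ2B only and 585 in both. The order of the single-knockdown patterns thus turned when list length was equal.

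Lost shares inside and outside H3K4me3 lay apart for some patterns only. Overlap with H3K4me3 was judged on the merged locus. A kept locus could thus meet it through a knockdown peak, and a locus lost in both could not. How many loci this concerns was not counted. Among the 329 siControl loci outside H3K4me3, 85 were lost in siBAZ2A only (25.8%, 21.404 to 30.8) and 108 in both (32.8%, 28.0 to 38.1), and 65.0% were lost in one or both. Loss in siBAZ2B only was the exception, at 21 loci (6.38%, 4.21 to 9.56) outside H3K4me3 and 6.98% inside it. The intervals of that pattern overlapped, while those of the other patterns did not. Its flat share does not mean that siBAZ2B peaks were lacking equally often. Counted alone or with siBAZ2A, a siBAZ2B peak was lacking at 39.2% (34.1 to 44.6) of loci outside H3K4me3. Inside it the share was 16.4% (15.1 to 17.7).

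Lost loci carried weak siControl G4 peaks. The fold enrichment, the authors' ratio of signal at a peak over its local background, had a median of 6.19 (6.08 to 6.43) at loci lost in siBAZ2A only, ranging from 2.36 to 12.7. It was 6.04 (5.86 to 6.35) at loci lost in siBAZ2B only, ranging from 2.84 to 10.6. Loci lost in both had the lowest median, 5.74 (5.47 to 5.88), and the lowest maximum, 9.25. The 2207 kept loci had a median of 7.65 (7.54 to 7.75) and ranged from 1.88 to 23.6. The interval of the kept loci lay above those of all 3 lost patterns, and the interval of loci lost in both reached into that of loci lost in siBAZ2B only.

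**Figure D1:**
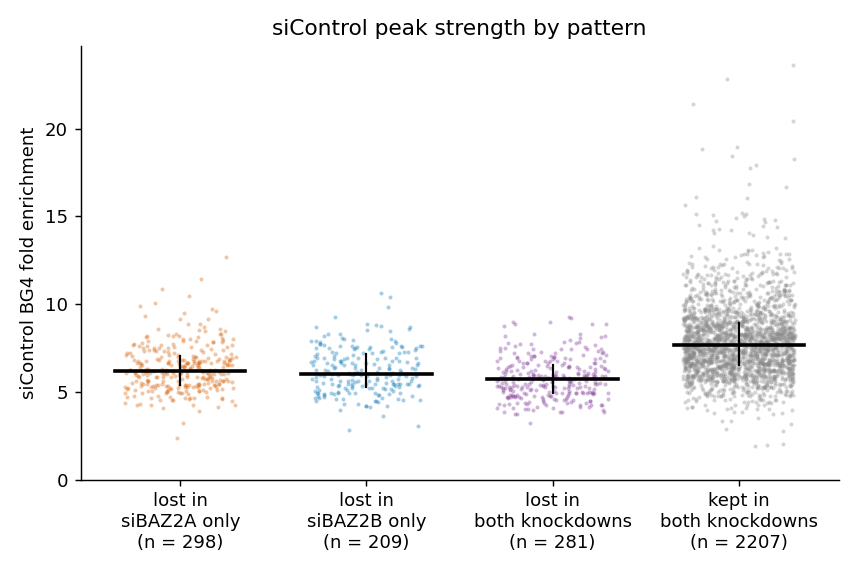
siControl BG4 fold enrichment (linear axis) of every siControl locus at H3K4me3, grouped by pattern; points are loci, with random sideways spread, thick lines are medians and thin vertical lines run between the quartiles. Medians are 6.19, 6.04 and 5.74 in the lost patterns and 7.65 at kept loci, and every lost pattern overlaps the kept loci widely.

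The patterns nonetheless overlapped broadly. The median fold of all 2995 loci was 7.16, and 69 loci lost in siBAZ2A only (23.2%), 52 lost in siBAZ2B only (24.9%) and 39 lost in both (13.9%) lay above it, against 1334 kept loci (60.4%). The authors' −log10 q, a measure of the evidence for a peak, was under 5 at 27.9%, 33.0% and 47.7% of the 3 lost patterns, in that order, and at 6.21% of kept loci. A −log10 q of at least 10 was reached by 45, 27 and 15 lost loci and by 1251 kept loci (56.7%).

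Loss became rarer at each step up in siControl strength. With the 2995 loci split into 5 fold classes of near equal size, 341 of 599 loci in the weakest class were lost in one or both knockdowns (56.9%, 52.9 to 60.8). The next classes lost 34.9%, 24.1% and 11.8%, and the strongest lost 22 of 592 (3.72%, 2.47 to 5.56). Loss in both knockdowns had the steepest slope, from 24.9% of the weakest class to 0.845% of the strongest. Loss in siBAZ2B only went from 14.4% to 0.676%, which is 4 loci, and loss in siBAZ2A only from 17.7% to 2.20%, which is 13 loci. In the weakest class the pattern most often seen was loss in both, while in each of the other 4 classes it was loss in siBAZ2A only.

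**Figure D2:**
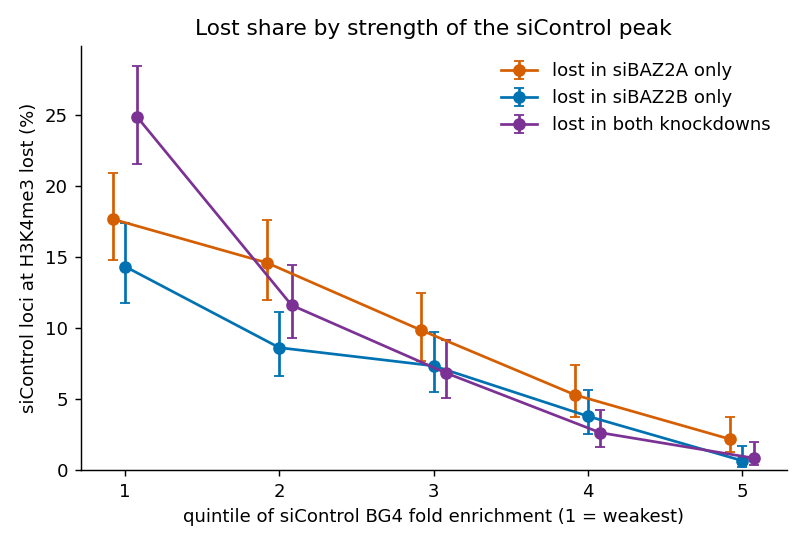
Share of siControl loci at H3K4me3 (percent) lost in each pattern, by quintile of siControl BG4 fold from weakest (1) to strongest (5), with 95% Wilson intervals. All 3 curves fall, and loss in both knockdowns starts highest at 24.9% and ends at 0.845%.

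Lost peaks were also narrow. The median siControl BG4 width was 508.5 bp (481 to 539) at loci lost in siBAZ2A only, 509 bp (477 to 555) at those lost in siBAZ2B only and 406 bp (391 to 420) at those lost in both, against 665 bp (653 to 679) at kept loci. The narrowest siControl peaks, at 299 bp, made up 47 of the 281 loci lost in both (16.7%, 12.8 to 21.5). They made up 16 loci (5.37%) lost in siBAZ2A only, 11 (5.26%) lost in siBAZ2B only and 18 kept loci (0.816%). The width difference held among peaks of like strength. In the 5 fold classes, from weakest to strongest, median widths of lost loci were 427, 502, 480.5, 515 and 465.5 bp, and those of kept loci 599, 644, 664.5, 709 and 668.5 bp.

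Some wide siControl peaks were lost all the same. The widest were chr2:179058580-179059987 (1408 bp, fold 5.45) and chr20:19738396-19739555 (1160 bp, 4.88), both lost in siBAZ2B only, and chr1:155023115-155024294 (1180 bp, 5.21), lost in siBAZ2A only. The widest peak lost in both was chr17:73030619-73031575, at 957 bp with a fold of 4.00. All 4 had folds below the median of 6.04 to 6.19 of the single-knockdown patterns.

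The strongest loci lost in siBAZ2A only kept their siBAZ2B peaks at varied strength. The first by siControl fold was chr9:80376715-80377163, with a fold of 12.7 in siControl and 7.50 in siBAZ2B. It lay on a short H3K4me3 peak of 416 bp, and the nearest siBAZ2A peak was 269.6 kb away. The locus chr10:135524443-135524882 had 11.4 in siControl and 10.4 in siBAZ2B, close to the top of both lists. In contrast, chr3:197391874-197392356 had 10.1 in siControl and 4.21 in siBAZ2B, on an H3K4me3 peak of fold 15.7. The other 7 of the 10 strongest had siControl folds of 9.34 to 10.9, and among these chr19:17337025-17337417 (9.49) had the highest siBAZ2B fold, 9.11. The weakest of the pattern was chr1:228744245-228744694, with 2.36 in siControl and 2.66 in siBAZ2B.

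The strongest loci lost in siBAZ2B only were chr15:57179358-57179844, with a fold of 10.6 in siControl and 7.59 in siBAZ2A, and chr6:4136024-4136447, with 10.4 and 7.62. Next came chr1:42501384-42501747 with 9.83 and 8.93. The locus chr19:6476298-6476781 was the only one of the 10 strongest with a higher fold in siBAZ2A (9.50) than in siControl (8.69), although folds of different lists are not on a shared scale. The lowest siBAZ2A fold among the 10 was 4.83, at chr17:57696870-57697257, which had 8.76 in siControl. The weakest of the pattern, chr19:41111261-41111589, had 2.84 and 2.74.

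Loci lost in both knockdowns have a siControl value only. The strongest were chr13:23949359-23949935 (fold 9.25), chr17:42620698-42621112 (9.21), chr17:27169560-27170047 (9.002), chr14:81407748-81408152 (8.97) and chr16:74808390-74809016 (8.89). The H3K4me3 peaks beneath them had folds of 12.2, 9.19, 13.3, 14.7 and 10.5. The chromosome 13 locus lay far from any peak of the lists that lacked it, 2198 kb from a siBAZ2A peak and 1771 kb from a siBAZ2B peak. The weakest, chr17:40830128-40830579, had a siControl fold of 3.24 and an H3K4me3 fold of 2.51.

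Where 1 knockdown list kept a peak, that peak was of lower rank too. Ranks within a list were used here because folds of separate lists share no scale. The siBAZ2B peaks at loci lost in siBAZ2A only stood at a median percentile of 41.5 (34.9 to 47.4) of the siBAZ2B list, against 63.7 (62.5 to 66.0) for the siBAZ2B peaks of kept loci. The siBAZ2A peaks at loci lost in siBAZ2B only stood at 34.5 (29.8 to 39.3) of the siBAZ2A list, against 66.5 (64.8 to 68.2). The same loci had siControl percentiles of 32.0 and 28.8, and kept loci 62.2. Loci missing from 1 knockdown list thus stood lower, at the median, in both lists that held them.

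The surviving peaks nevertheless included strong ones. A −log10 q under 5 was found in 87 of 298 siBAZ2B peaks (29.2%, 24.3 to 34.6) and 59 of 209 siBAZ2A peaks (28.2%, 22.6 to 34.7) at singly lost loci, against 8.70% and 7.11% at kept loci. The fold in the surviving list reached 10.9 in siBAZ2B and 10.4 in siBAZ2A. By percentile, 166 of 298 loci (55.7%) ranked higher in siBAZ2B than in siControl and 114 of 209 (54.5%) ranked higher in siBAZ2A. At kept loci these shares were 49.6% for siBAZ2B and 56.4% for siBAZ2A.

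Ranks of the same locus in 2 lists were more loosely tied at lost loci. Across loci lost in siBAZ2A only, siControl and siBAZ2B folds had a Spearman correlation of 0.326 and a Pearson correlation of 0.351 (n = 298 loci). Across loci lost in siBAZ2B only, siControl and siBAZ2A folds had 0.351 and 0.401 (n = 209). At the 2207 kept loci the values were 0.561 and 0.666 with siBAZ2B, and 0.649 and 0.732 with siBAZ2A. These are descriptions across loci of the same lists, and lost loci span a narrower range of folds than kept ones.

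**Figure D3:**
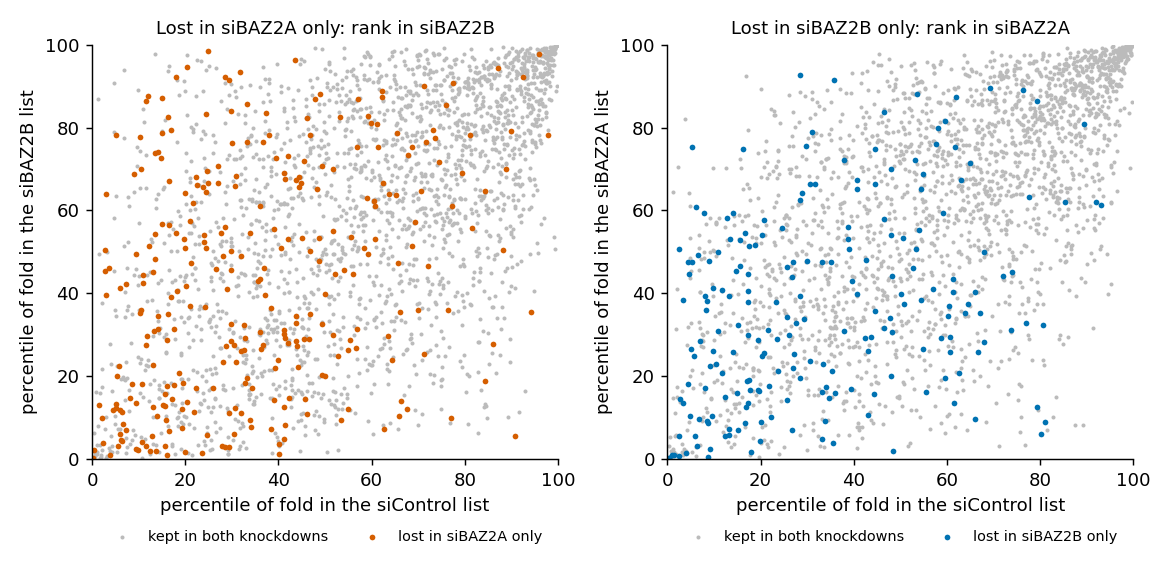
Percentile of fold in the surviving knockdown list (vertical) against percentile in the siControl list (horizontal) for loci lost in siBAZ2A only (left, n = 298) and in siBAZ2B only (right, n = 209), with the 2207 kept loci in grey. Coloured points crowd the lower left, with median surviving percentiles of 41.5 and 34.5 against 63.7 and 66.5 at kept loci, and a few lie at high ranks of both lists.

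Few lost loci had a peak of the lacking list close by. The nearest siBAZ2A peak to a locus lost in siBAZ2A only lay at a median of 63.8 kb, and the nearest siBAZ2B peak to one lost in siBAZ2B only at 72.7 kb. For loci lost in both, the medians were 89.4 kb to siBAZ2A and 64.0 kb to siBAZ2B. A peak of the lacking list within 1000 bases was found at 6 of 298 (2.01%), 3 of 209 (1.44%) and, for either list, 9 of 281 loci (3.20%). Likewise, the H3K4me3 region itself held a peak of the lacking list elsewhere at 5 loci lost in siBAZ2A only and 3 lost in siBAZ2B only. Among loci lost in both it held a siBAZ2A peak at 4 and a siBAZ2B peak at 6. At all other lost loci the marked region had no peak of the lacking list anywhere. A second siControl peak on the region was also rare, at 2 loci (0.671%) lost in siBAZ2A only and 1 (0.478%) lost in siBAZ2B only. Among loci lost in both it was found at 6 (2.14%). The lack of a peak elsewhere on the region therefore says little about the knockdowns.

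The loci nearest to the border of the rule were as follows. Just inside it, chr13:114428658-114429361 lay 28 bases from a siBAZ2A peak, chr8:141468105-141468511 lay 98 bases and chr11:519164-520021 lay 106 bases from one, and all 3 counted as lost in siBAZ2A only. The locus chr12:22697253-22697709 lay 184 bases from a siBAZ2B peak and counted as lost in siBAZ2B only. The locus chr4:119756949-119757315 lay 40 bases from a siBAZ2B peak and 376.2 kb from a siBAZ2A peak and counted as lost in both. Just outside it, chr6:159065857-159066184 shared 26 bases with a siBAZ2A peak, and chr1:161369122-161369579 shared 62. With siBAZ2B peaks, chr6:13575103-13575513 shared 30 bases and chr10:103113753-103114105 shared 46, and both of these were lost in siBAZ2A. Such cases were few. Counted by single siControl peak that itself overlapped H3K4me3, not by merged locus, 2413 peaks shared bases with a siBAZ2A peak (median 537 bases) and 2504 with a siBAZ2B peak (median 536), and 3 and 11 of them shared under 100 bases.

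Peak names hold a run name, 1 per list, and a running number. Which labelled replicate each run was could not be told. The numbers were read here as those of all peaks of that run. A missing number would then be a peak left out of the deposited list, a reading that no label states. For most lost loci some number was missing between the flanking peaks. Even the nearest peak of a lacking list lay at medians of 63.8 to 89.4 kb, so a missing number need not belong to the locus. Shares for kept loci were not compared, so these numbers do not show whether a peak was left out at a lost locus. No number was missing at 26 of the 289 loci lost in siBAZ2A only that had a numbered peak on each side (8.997%), and at 20 of 206 lost in siBAZ2B only (9.71%). On that reading, the run named in the list had no further peak between the flanking ones. It says nothing about the other replicates of the group. These loci included the strongest lost locus, chr9:80376715-80377163.

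Among loci lost in both, no number was missing in siBAZ2A at 26 of 274 (9.49%) and in siBAZ2B at 48 of 277 (17.3%). Both lists met this at 4 loci, which were chr20:32307949-32308363 (siControl fold 6.99), chr19:48774781-48775079 (5.71), chr17:40171938-40172236 (5.54) and chr17:36981422-36981720 (4.38). The last 3 had the minimum width of 299 bp. These 4 were chosen after their values were seen.

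The lost G4 peaks sat close to the H3K4me3 summit, as kept ones did. The siControl summit fell inside the H3K4me3 peak at 291 of 298 loci lost in siBAZ2A only (97.7%), 207 of 209 lost in siBAZ2B only (99.0%) and 271 of 281 lost in both (96.4%, 93.6 to 98.1), against 99.3% (98.8 to 99.6) of kept loci. The median distance between the G4 and H3K4me3 summits was 146.5 bp (119 to 178), 133 bp (99 to 169) and 135 bp (113 to 162) in the lost patterns and 118 bp (108 to 129) at kept loci. Those intervals overlapped. The distance from the G4 summit to the nearer edge of the H3K4me3 peak was shorter at loci lost in both, at 347 bp (298 to 387), than at kept loci, at 450 bp (434 to 465). A narrower H3K4me3 peak leaves less room for that distance. Its median width was 1312 bp at loci lost in both and 1484 bp at kept loci.

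The H3K4me3 regions under lost loci had lower median widths. Their median width was 1357.5 bp (1269 to 1425) at loci lost in siBAZ2A only, 1398 bp (1298 to 1503) at those lost in siBAZ2B only and 1312 bp (1251 to 1376) at those lost in both, against 1484 bp (1461 to 1508) at kept loci. The interval of loci lost in siBAZ2B only overlapped that of kept loci. The separation of loci lost in siBAZ2A only also depended on the processing, since their interval overlapped that of kept loci under 6 of 11 alternatives, and that of loci lost in both did so under 2. From the narrowest to the widest of 5 H3K4me3 width classes, the share lost in one or both knockdowns was 32.7%, 30.6%, 23.8%, 23.1% and 21.3%, and the share lost in both went from 14.4% to 7.38%. No such order was seen across classes of H3K4me3 fold, where the shares were 27.7%, 23.7%, 22.04%, 28.7% and 29.4%.

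Long H3K4me3 regions that lost their G4 peak were found in each pattern. They included chr19:796991-797775 (H3K4me3 width 2904 bp), lost in siBAZ2A only, and chr5:60627542-60627860 (3329 bp) and chr19:50093288-50093856 (3207 bp), lost in siBAZ2B only. Loci lost in both included chr17:4851945-4852865 (3315 bp), chr9:38069448-38070065 (3263 bp) and chr17:42295990-42296336 (3192 bp). At chr5:60627542-60627860 the siControl G4 peak was only 319 bp wide but had a fold of 7.29, above the median of all loci.

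At like G4 strength, median H3K4me3 folds were higher at lost than at kept loci when the 3 lost patterns were pooled. The pooled medians in the 5 classes of siControl BG4 fold, from weakest to strongest, were 7.69, 8.58, 8.50, 8.80 and 10.5, and those of kept loci 6.94, 7.48, 7.89, 8.16 and 8.54. The pooled intervals lay apart in the second class only, at 7.98 to 9.10 for lost and 7.31 to 7.76 for kept loci. Taken singly, the 149 loci lost in both in the weakest class also lay apart, at 8.18 (7.38 to 8.61) against 6.94 (6.61 to 7.30). So did the 88 lost in siBAZ2A only in the second class (7.96 to 9.25). The 5 lost in both in the strongest class had 9.19 to 14.7 against 8.26 to 8.75. The higher median had 2 exceptions among single patterns, with intervals overlapping those of kept loci. In the weakest class the 86 loci lost in siBAZ2B only had 6.86 against 6.94, and in the fourth class the 32 lost in siBAZ2A only had 8.09 against 8.16. Over all classes together the medians were close, at 8.36 (7.96 to 8.67), 7.98 (7.25 to 8.62) and 8.35 (7.94 to 8.72) in the lost patterns and 7.96 (7.80 to 8.08) at kept loci. Pooled widths ran the other way, with lost medians of 1365, 1368.5, 1401, 1312 and 1032.5 bp against 1439.5, 1522.5, 1503.5, 1507 and 1444 bp for kept loci. Here loci lost in siBAZ2B only in the weakest class were the exception, at 1506.5 bp (1310 to 1593) against 1439.5 bp (1317 to 1505). The width intervals lay apart in the second and in the strongest class, where the 22 lost loci had 763 to 1269 bp and the kept loci 1407 to 1489 bp.

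**Figure D4:**
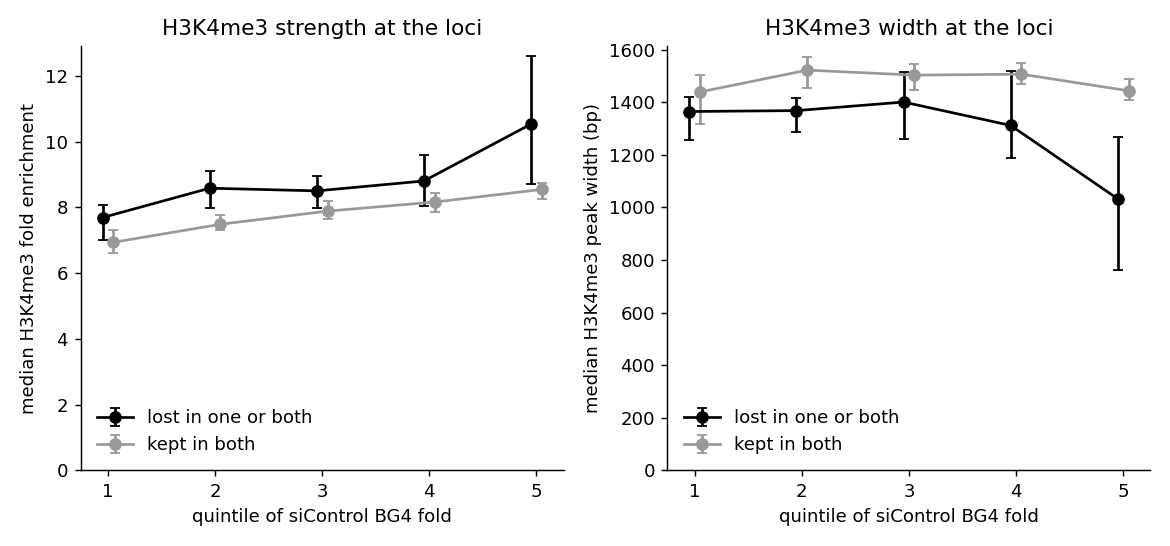
Median H3K4me3 fold enrichment (left) and H3K4me3 peak width in bp (right) of siControl loci by quintile of siControl BG4 fold, for loci lost in one or both knockdowns (black) and kept in both (grey), with 95% intervals of the median. Black points lie above grey on the left (10.5 against 8.54 in quintile 5) and below on the right (1032.5 against 1444 bp), with overlapping intervals in most classes.

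Lost loci rarely shared an H3K4me3 region. Only 6 of the 788 lay on a region with another lost locus, as 3 pairs. On chromosome 1, chr1:27189293-27189679 was lost in both knockdowns and chr1:27191574-27191945 in siBAZ2B only, on 1 region of 2468 bp. On chromosome 17, chr17:73029852-73030321 and chr17:73030619-73031575 were both lost in both knockdowns, on a region of 1953 bp. The third pair, on chromosome 8, was also lost in both knockdowns on a region of 1364 bp, with siControl folds of 4.38 and 5.01.

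Chromosome 6 had the highest lost share of the chromosomes. There 32 of 65 siControl loci at H3K4me3 were lost (49.2%, 37.5 to 61.1), of which 6 were lost in siBAZ2A only, 11 in siBAZ2B only and 15 in both. The other chromosomes from 1 to 22 and X together lost 25.4% (23.8 to 27.0) of 2847 loci, and chromosome 19, with 322 loci, had the lowest share (19.3%, 15.3 to 23.9). Chromosome 6 was singled out after its share was seen, as the highest of 23. Its siControl peaks had a median fold of 6.75, below the 7.16 of all loci. Among loci at or below the median siControl fold, 26 of 38 loci of chromosome 6 were lost (68.4%, 52.5 to 80.9) against 40.6% (38.1 to 43.2) elsewhere, and among loci above it, 6 of 27 (22.2%, 10.6 to 40.8) against 10.3% (8.82 to 11.98).

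**Figure D5:**
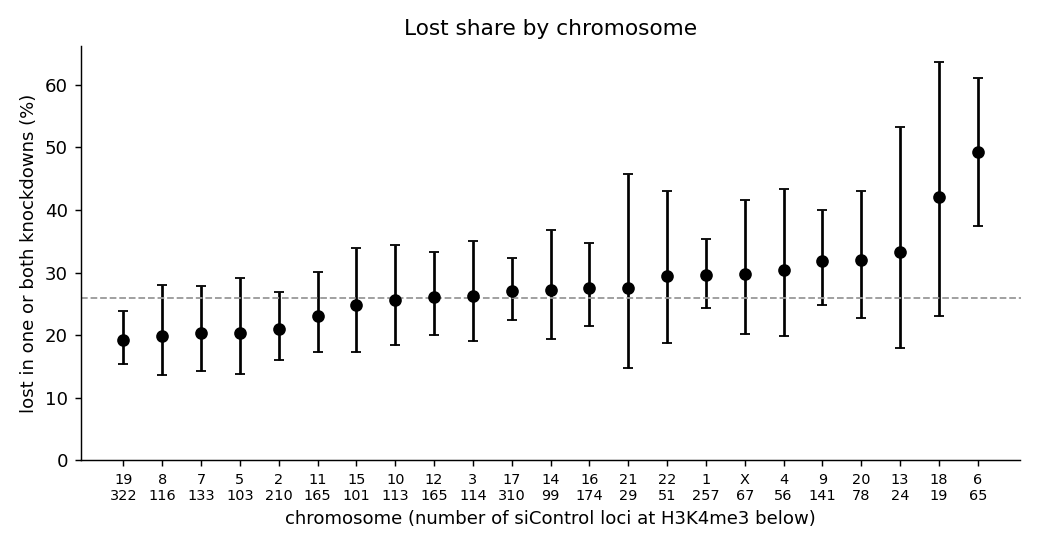
Share of siControl loci at H3K4me3 (percent) lost in one or both knockdowns on chromosomes 1 to 22 and X, in rising order, with 95% Wilson intervals; the number of loci stands under each chromosome and the dashed line is the share over all of them (25.9%). The interval of chromosome 6 (37.5 to 61.1) lies above the dashed line and that of chromosome 19 (15.3 to 23.9) below it.

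The loss on chromosome 6 was not limited to the major histocompatibility complex, the gene-dense region of antigen presentation genes. Between 28.5 and 33.5 Mb, 8 of 13 loci were lost (61.5%), and over the remaining chromosome 24 of 52 (46.2%, 33.3 to 59.5). The alternate haplotype contigs of that complex, which hg19 holds beside chromosome 6, had 27 of 55 loci lost (49.1%). Of these, 7 were lost in siBAZ2A only, 4 in siBAZ2B only and 16 in both. These contigs are versions of the same region, so several of their loci may be copies of 1 site. For example, chr6_apd_hap1:137163-137461, chr6_dbb_hap3:137148-137470 and chr6_qbl_hap6:137139-137461 were all lost in both. A haplotype contig of chromosome 17 held 2 more loci lost in siBAZ2A only and 1 lost in both. Without the haplotype contigs of both chromosomes the patterns held 289, 205 and 264 loci.

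Lost loci were spread along the chromosomes and formed runs in places. Chromosome ends were taken here as the first base and the end of the last peak in any of the 4 lists. A summit within 5 Mb of such an end was found at 18.8% of loci lost in siBAZ2A only and 15.1% of those lost in siBAZ2B only. At loci lost in both it was 12.5% (9.08 to 17.1), and at kept loci 18.3% (16.8 to 20.0), so these intervals overlapped. Of loci with another siControl locus at H3K4me3 within 100 kb, the nearest one was itself lost for 29.3%, 27.5% and 32.8% of the 3 lost patterns and for 24.7% of kept loci.

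Along the chromosomes, 14 runs of at least 4 consecutive siControl loci at H3K4me3 were all lost, holding 67 of the 788 loci. These runs were chosen after their values were seen. Over chromosomes 1 to 22 and X, 755 of 2912 loci (25.9%) were lost, and the number of runs that scattered loss would give was not computed. The runs spanned 0.145 to 17.9 Mb. The run with the most loci, chr10:102045902-103578731, held 7 loci over 1.53 Mb, with 4 lost in siBAZ2A only, 3 in siBAZ2B only and siControl folds of 4.69 to 8.56. The densest held 6 loci in 0.145 Mb at chr16:2587485-2732870. Of these, 5 were lost in siBAZ2A only, with siControl folds of 6.08 to 7.11 and siBAZ2B folds of 4.61 to 7.02. The sixth, chr16:2653291-2653776 with a siControl fold of 8.30, was lost in both.

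The ribosomal RNA genes are the known target of BAZ2A. The unplaced contig chrUn_gl000220, parts of which are ribosomal RNA gene sequence, had 4 siControl loci at H3K4me3. The locus chrUn_gl000220:93540-94005 (siControl fold 5.47) was lost in both knockdowns, and the other 3 were kept in both. Whether these 4 lie in the ribosomal sequence itself was not analysed here, and no difference from other loci can be read from so few.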

How the data were processed

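Peak lists were made by the authors, 1 per group. Builds hg19 and dm6 are given in the submitters' processing notes, which list MACS2 2.1.4, bedtools, SAMtools 1.15.1, Picard and Bowtie2 2.4.5 as tools. Peaks present in 2 or more replicates were kept and positioned by the largest replicate's file, per the labels. The deposited lists give the fold (a ratio over local background) and the −log10 of the q-value of each peak, and neither was rescaled. Drosophila spike-in chromatin was added, per the labels' protocols, and its use in scaling is not stated there.

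BG4 peaks of the 3 lists were merged into loci by 1 shared base and classed by the lists holding them. A locus took the fold of its strongest peak in a list. Shares have Wilson intervals and medians distribution-free binomial intervals, both at 95%. No test was run. Named loci were taken from the 10 strongest and 3 weakest of each pattern by siControl fold, the 3 widest by BG4 and by H3K4me3 peak, the 3 on each side of the overlap rule, and pairs on 1 H3K4me3 region. The members and lists were chosen with earlier results of these data known. The counting was tested on simulated data. There were 11 alternatives, 2 of them chosen after seeing the data. Gene names, promoters and motifs were not analysed here. Computation used NumPy 2.4.6, pandas 2.3.3, SciPy 1.17.1 and matplotlib 3.10.9 under Python 3.11.15.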

Additional observations from a re-analysis of the deposited data

How the results depend on the processing

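Of the 11 alternatives, 10 left the number lost in siBAZ2A only within 1.5 times of 298, 8 did so for the 209 lost in siBAZ2B only and 6 for the 281 lost in both. With the stronger 50% of H3K4me3 peaks alone the numbers were 162, 102 and 151, from 1493 loci instead of 2995. With knockdown lists limited to the length of the siControl list, 465 were lost in siBAZ2B only and 585 in both. With summits required within 250 bases these were 332 and 429. With siControl peaks at a −log10 q of at least 5 and knockdown lists whole, 147 were lost in both. With that minimum on knockdown peaks only, an alternative chosen after seeing the data, 475 were. The median siControl fold of the lost patterns was 5.64 to 6.90 and that of kept loci 7.65 to 8.10 over these alternatives. The lost share of chromosome 6 was 36.7% to 63.1%, and that of the other chromosomes 19.0% to 43.5%. Under a reciprocal overlap of 50% or the summit rule, 31.0% to 46.1% of lost loci had a peak of the lacking list within 1 kb, since overlapping peaks can then count as lost. No paired analysis was possible because the 4 replicates of a group share 1 list, nor could single replicates be omitted. A locus missing from a list cannot be told apart from a peak just under the caller's threshold or from a peak called in only 1 replicate. If a list holds only peaks of the largest replicate's file, a peak called in other replicates alone would be missing as well.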
